A study of Mus musculus with 2 samples.

Results

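The genes described here are the oxidative stress genes controlled by the transcription factor Nrf2 in mouse embryonic fibroblasts, before and after 1 h of serum, with and without THOC5, a subunit of the THO complex that helps to export mRNA from the nucleus. They are 9 of the 28312 genes with a symbol on the arrays: 7 target genes (Hmox1, Nqo1, Gclc, Gclm, Txnrd1, Srxn1 and Slc7a11), Nfe2l2, which encodes Nrf2 itself, and Keap1, which encodes the protein that holds Nrf2 in check. They were taken by name as genes of this pathway, and the rule for membership used no measured value. The list was, however, chosen with earlier results of these data known.

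In resting cells Keap1 binds Nrf2 and hands it to a ubiquitin ligase, so that Nrf2 is degraded. Oxidants and electrophiles modify Keap1, Nrf2 accumulates in the nucleus, pairs with a small Maf protein and binds antioxidant response elements near genes for heme breakdown, quinone reduction, glutathione synthesis and thioredoxin-dependent reduction. Bach1, which also pairs with small Maf proteins, represses several of the same genes.

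Total RNA of immortalized fibroblasts from Rosa26ERT2 Cre: THOC5 (flox/flox) mice on a C57BL/6 x B6:129 Ola background was hybridised to 2 dual-color Agilent arrays. All samples carried the floxed Thoc5 alleles and the tamoxifen-activated Cre, which is made from the broadly active Rosa26 locus. The control array held cells without tamoxifen, labelled wildtype in the records, and the THOC5-depleted array held cells given tamoxifen for 2 days by their labels, labelled THOC5 knockdown. The study's text gives 2 days too for other experiments with these cells, while its account of cell culture gives a shorter exposure to tamoxifen followed by growth medium and starvation. On each array Cy3 carried unstimulated cells (no serum) and Cy5 carried cells after 1 h of FCS (fetal calf serum). Tamoxifen, the culture, the slide position and the loss of THOC5 differ together between the arrays and cannot be told apart, and a dye bias that is alike on the arrays cannot be told apart from the serum effect, since both had the same dye order. With 1 array per condition there was no replicate check, so that no p-value is given and a difference is described by its size.

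As yardsticks for those sizes, 271 probes printed at 10 spots each had a median SD of the log2 serum ratio of 0.029 (control array) and 0.031 (THOC5-depleted array). Different probes of the same gene (3748 genes with several probes) had a median SD of 0.116 and 0.104 for the same ratios, and of 0.129 and 0.123 for level changes between arrays in unstimulated and stimulated cells. The 10 spike-in probes, whose RNA was added and not made by the cells, had log2 ratios that were 0.24 higher on the THOC5-depleted array (range 0.15 to 0.31). None of these measures the variation between cultures. Thoc5 itself was 7.10-fold lower on the THOC5-depleted array in unstimulated cells and 5.39-fold lower after serum. Of 10 fibroblast markers, 9 were well above background in all 4 channels. Of 6 macrophage and leukocyte markers, Itgam (6314 to 8700) and Csf1r (383 to 538) were, with a summed signal of that list between 6739 and 9189, while Ptprc (5.6 to 14.4) and Cd68 (11.6 to 26.0) were dim and Lyz2 (3.06 to 3.73) was not well above background in any channel. In RNA of a whole culture, fewer cells of a type and less RNA per cell cannot be told apart.

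Every member was read by probes of 60 bases, 1 probe for 8 genes and 2 for Hmox1, each printed as 1 spot. All 10 probes were well above background in all 4 channels, and none was saturated or marked as an outlier. Probe positions are those of mouse build mm9. The sequences of a pair of probes are shown, because Hmox1 had the widest changes and Keap1 was the only member lower after serum on both arrays.
Hmox1, the dimmer of its probes, mm9 chr8:77620797-77620856, + strand: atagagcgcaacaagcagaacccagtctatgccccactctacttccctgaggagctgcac
Keap1, mm9 chr9:21035292-21035732, − strand: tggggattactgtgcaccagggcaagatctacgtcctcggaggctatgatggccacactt
Both are printed 5′ to 3′ as on the array, with no part in capitals because no base stands out. The Keap1 probe covers 441 bases of the genome, more than its own length, so that it maps in separate pieces, as does the Gclm probe (2636 bases, chr3:121962174-121964809). The brighter Hmox1 probe lies at chr8:77624207-77624266, with its start 3410 bases further along the + strand.

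**Figure D1:**
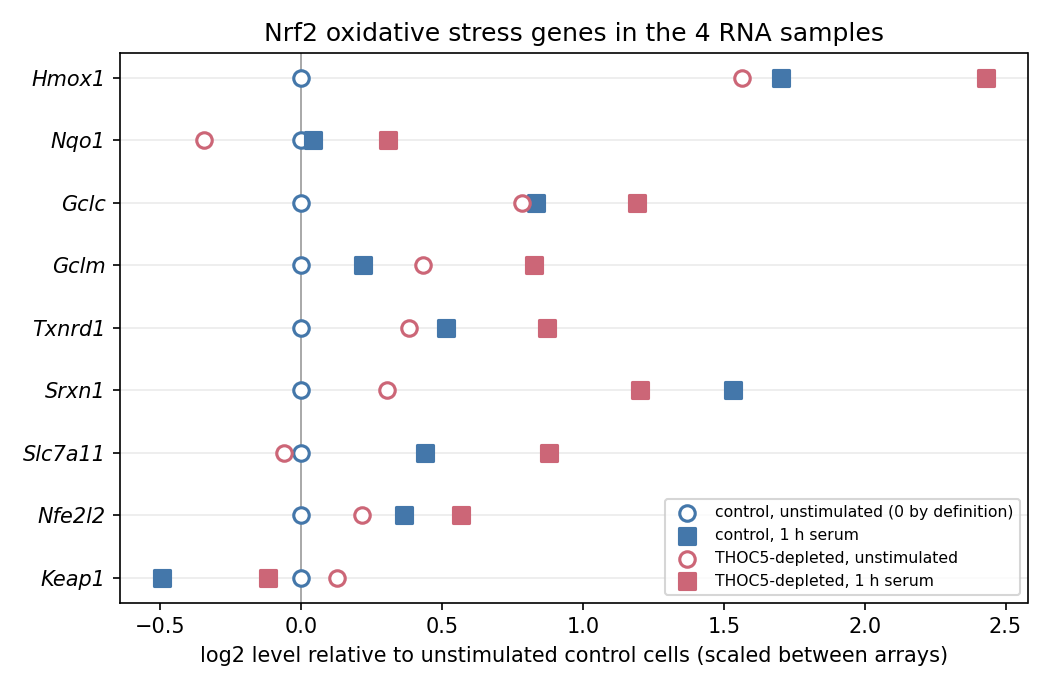
Log2 level of each of the 9 genes in the 4 RNA samples, relative to unstimulated control cells and after scaling between arrays; open circles are unstimulated cells and filled squares cells after 1 h of serum. Hmox1 spans 2.43 over the 4 samples, Srxn1 1.53 and Gclc 1.19, and the other genes span less than 1.

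After 1 h of serum, 8 of the 9 genes had a higher signal than in unstimulated cells on each array, and Keap1 had a lower one on each. On the control array Hmox1, Srxn1 and Gclc had ratios of 1.5-fold or more, and none was lower by as much. On the THOC5-depleted array Slc7a11, Srxn1, Hmox1 and Nqo1 passed that limit upward and none passed it downward. Among all genes well above background in at least 1 channel compared, 6.9% were higher and 6.92% lower by this limit on the control array (18814 genes), and 3.83% were higher and 2.09% lower on the THOC5-depleted array (18575 genes). The members had a median log2 serum ratio of 0.44 (control) and 0.49 (THOC5-depleted), beside -0.028 and -0.015 over all genes counted. These are descriptions of a short list chosen by name.

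Hmox1 encodes heme oxygenase, the inducible enzyme that breaks down heme and yields iron, carbon monoxide and biliverdin. The processed signal of its brighter probe was 6370 in unstimulated and 20749 in stimulated control cells, and 15297 and 27874 in unstimulated and stimulated THOC5-depleted cells. The unstimulated control sample was the low one, and the unstimulated THOC5-depleted sample lay closer to the stimulated control sample than to it. The serum ratio was 3.26-fold in the control culture and 1.82-fold in the depleted one. Of all genes counted, 98.8% and 98.3% had a lower serum ratio than Hmox1 on the respective arrays. The dimmer probe gave signals of 457, 1397, 1067 and 1791 in the same order, with log2 serum ratios of 1.61 and 0.75 where the brighter gave 1.70 and 0.87. The probes differed by 0.09 and 0.12, close to the median SD of probes of a gene.

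Srxn1 encodes sulfiredoxin, which repairs overoxidised peroxiredoxins. Its signal went from 11908 to 34465 in control cells and from 12122 to 22596 in THOC5-depleted cells (chr2:151937009-151937068). The unstimulated samples were close to each other as deposited, and the stimulated control sample was the brightest. The signal after serum was thus 2.89-fold higher without and 1.86-fold higher with depletion of THOC5. Txnrd1, thioredoxin reductase, which passes electrons from NADPH to thioredoxin, had signals of 16823 and 24001 in control cells and of 18056 and 25369 in THOC5-depleted cells (chr10:82360230-82360289). Its serum ratios of 1.43-fold and 1.41-fold were nearly equal, and both were under the 1.5-fold limit, although without dye normalization they came to 0.64 and 0.65 on the log2 scale, past it.

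Gclc and Gclm encode the catalytic and the modifier subunit of glutamate-cysteine ligase, the enzyme of the rate-limiting step of glutathione synthesis. For Gclc the signal was 1298 before and 2314 after serum in control cells, and 1801 and 2389 in THOC5-depleted cells (chr9:77641296-77641355). The unstimulated control sample stood below the other 3, and the serum ratio of 1.78-fold without depletion compared with 1.33-fold with it. For Gclm the signal was 219.3 and 255.7 in control cells and 252.3 and 331.3 in THOC5-depleted cells. Its ratios of 1.17-fold and 1.31-fold were both under the limit. The subunits of this enzyme thus had ratios in opposite order between the arrays. The size of the difference for Gclm, 0.17 on the log2 scale, is below the 0.24 by which the spike-in ratios differed. At equal spread of the log ratios it was 0.28, above 0.24.

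Slc7a11 encodes the transport subunit of the cystine/glutamate antiporter, which supplies cysteine for glutathione. It had signals of 243.1 and 329.4 in control cells and of 197.7 and 379.5 in THOC5-depleted cells (chr3:50169700-50169759). The stimulated THOC5-depleted sample was the highest and the unstimulated THOC5-depleted sample the lowest, and the ratios were 1.35-fold and 1.92-fold. Nqo1, a quinone reductase that uses NADPH or NADH, had signals of 5568 and 5727 in control cells and of 3487 and 5486 in THOC5-depleted cells (chr8:109912440-109912499). As deposited, without scaling between arrays, 3 of the 4 samples lay close together and the unstimulated THOC5-depleted sample was low. After scaling, the stimulated THOC5-depleted sample (6148) was the highest and the unstimulated one (3908) the lowest, beside 4962 and 5104 in control cells. Within the arrays, Nqo1 had a serum ratio of 1.03-fold without and 1.57-fold with depletion of THOC5.

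Nfe2l2 had signals of 5822 and 7496 in control cells and of 5398 and 6900 in THOC5-depleted cells (chr2:75513771-75513830), with serum ratios of 1.29-fold and 1.28-fold. The ratios of the mRNA of the transcription factor differed by -0.01 on the log2 scale, or by 0.11 at equal spread of the log ratios, both less than the 0.24 of the spike-in ratios. Keap1 had signals of 2602 and 1846 in control cells and of 2287 and 1928 in THOC5-depleted cells. The stimulated samples were the lower ones in both cases, by 1.41-fold without and by 1.19-fold with depletion, neither past the limit.

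**Figure D2:**
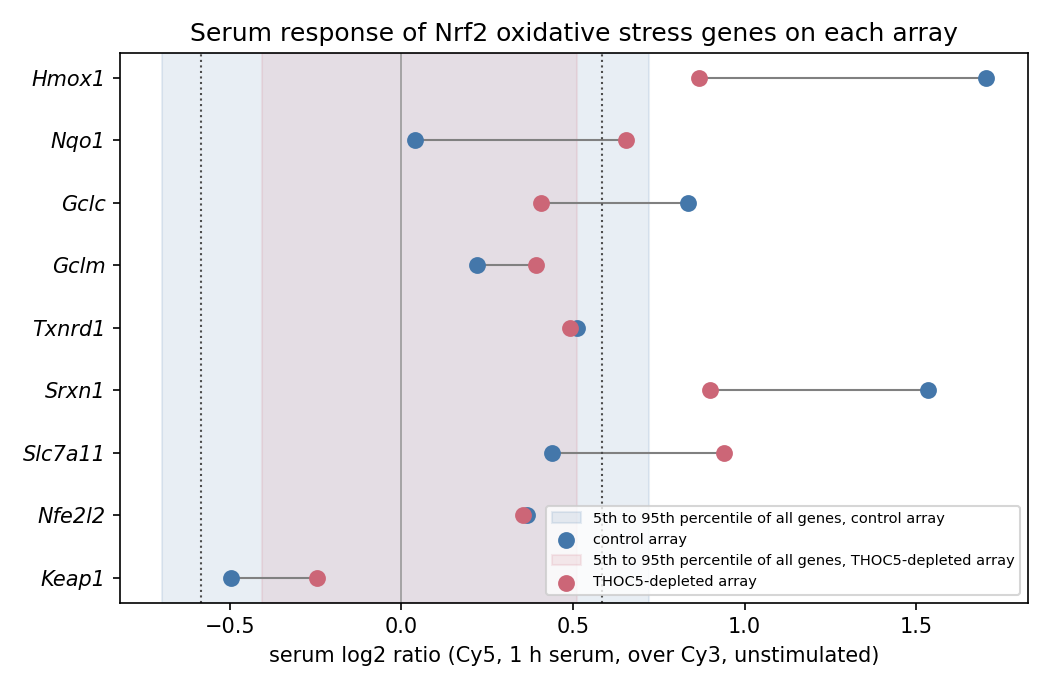
Log2 serum ratio of each gene on the control array (blue) and the THOC5-depleted array (red), joined by a line; shaded bands hold the 5th to 95th percentile of all genes counted on each array and dotted lines mark 1.5-fold. Hmox1 and Srxn1 have smaller ratios on the THOC5-depleted array by 0.84 and 0.63, Nqo1 a larger one by 0.61.

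To compare the serum response between the arrays, the log2 ratio of the control array was subtracted from that of the THOC5-depleted array. The median difference over the 9 members was -0.01, beside 0.01 over all genes counted, and 4 members were above 0. Hmox1 (-0.84, a 1.79-fold smaller ratio) and Srxn1 (-0.63, 1.55-fold) lay past 1.5-fold in the negative direction, and Nqo1 (0.61, 1.53-fold) in the positive one. Over 19342 genes, 5.98% had a ratio that was larger by the limit in THOC5-depleted cells and 5.09% a smaller one. Of all genes counted, 2.55% had a lower difference than Hmox1. Below the limit were Slc7a11 (0.50), Keap1 (0.25), Gclm (0.17), Nfe2l2 (-0.01), Txnrd1 (-0.02) and Gclc (-0.43). The spike-in ratios differed by 0.24 (range 0.15 to 0.31) in the positive direction, as did Nqo1, Slc7a11, Keap1 and Gclm. Keap1 lay at about that size. The part of the spike-in difference in the values of the members was not tested. The members did not move one way. Hmox1, Srxn1 and Gclc, which had the largest serum ratios in control cells, each had a smaller one with THOC5 depleted, and the control ratio enters both quantities. The log ratios were also less spread on the THOC5-depleted array (median absolute deviation of 0.138) than on the control array (0.193). Both deviations were taken over probes well above background in every channel. When both arrays were brought to the same spread, the difference was -0.42 for Hmox1 and -0.24 for Srxn1, so that neither passed the limit. At that setting Nqo1 and Slc7a11 each came to 0.74, so that 2 members lay past the limit upward and 0 downward, in place of 1 and 2. Nqo1, just past the limit, came to 0.58 without dye normalization, just inside it.

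The levels themselves were then compared between arrays within each channel, after scaling the arrays to a common distribution. In unstimulated cells, 2 of the 9 genes, Hmox1 and Gclc, had a level that was 1.5-fold or more higher in THOC5-depleted than in control cells, and none was lower by the limit. Among 19090 genes counted, 6.88% were higher and 7.56% lower. After serum, Hmox1 and Gclm passed the limit upward and none downward, beside 8.36% of 18707 genes higher and 7.25% lower. The median log2 change of the members was 0.30 in unstimulated and 0.36 in stimulated cells, and over all genes counted it was -0.0065 and 0.00077. Without scaling, all genes counted were shifted to medians of -0.26 in unstimulated and -0.25 in stimulated cells, with 4.50% and 5.46% higher and 15.3% and 14.9% lower by the limit. The members moved with that shift, to medians of 0.026 and 0.063, with 1 higher (Hmox1) and 1 lower (Nqo1) before and 0 higher and 1 lower (Srxn1) after serum. Relative to the median of all genes, the same unscaled values put Hmox1 (1.52) and Gclc (0.73) past the limit before and Hmox1 (0.68) and Gclm (0.63) after serum, as with scaling, and Nqo1 (-0.41) and Srxn1 (-0.35) inside it. The same samples enter these changes and the serum ratios, so that the change after serum minus the change before it is the difference of the serum ratios.

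Hmox1 had the largest change of the members. Its scaled signal was 5696 and 18551 in unstimulated and stimulated control cells and 16863 and 30728 in THOC5-depleted cells. The level was 2.96-fold higher in unstimulated THOC5-depleted cells (log2 1.57; dimmer probe 1.51) and 1.66-fold higher after serum (0.73; dimmer probe 0.65). Of all genes counted, 98.4% had a lower change than Hmox1 in unstimulated and 94.0% in stimulated cells. The unstimulated change stayed past the limit in 10 of 10 alternative treatments of the signals, between 1.26 and 1.58, and the change after serum in 9 of 10, the exception being the unscaled value of 0.43. Among these treatments, keeping outlier spots and setting a signal floor left both changes as they were. Hmox1 had no outlier spot and no signal under the floor. Of the 6 markers of macrophages and leukocytes, cells that can also express Hmox1, Itgam had log2 changes of 0.57 in unstimulated and 0.41 in stimulated cells and Csf1r of 0.24 and -0.06. Near background, the changes were 1.23 and 1.28 for Cd68, 0.77 and 1.53 for Ptprc, 0.16 and -0.02 for Lyz2 and -0.14 and 0.33 for Adgre1. Single markers of other cells also moved in unstimulated cells, among them Col3a1 (-1.13) and, near background, Lum (-2.05) of the fibroblast list (median -0.19). Dim ones were Cdh5 (-0.83) of the endothelial list (median 0.06) and Epcam (-2.43) of the epithelial list (median 0.01). The remaining endothelial and epithelial markers lay between -0.01 (Cdh1) and 0.14 (Krt18). The part of these cells in the level of Hmox1 was not tested.

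In the glutathione group, Gclc had scaled signals of 1169 and 2084 in control cells and of 2014 and 2671 in THOC5-depleted cells. The unstimulated level was 1.72-fold higher with THOC5 depleted (log2 0.78), and the stimulated level 1.28-fold higher. Gclm, with scaled signals of 203.0, 236.6, 274.1 and 359.9 in the same order, was 1.35-fold higher unstimulated and 1.52-fold higher after serum. The value of Gclm after serum, 0.61, is just past the limit. It was 0.54 with scaling to the median and 0.53 with another background correction and dye normalization together, each below the limit. Slc7a11, with scaled signals of 224.5, 304.2, 215.2 and 413.0, had log2 changes of -0.06 and 0.44. All 3 genes were thus brightest in stimulated THOC5-depleted cells on this scale.

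Among the reductases, Srxn1 had scaled signals of 10817, 31308, 13363 and 24909, a log2 change of 0.30 in unstimulated cells and of -0.33 after serum. On this scale it was the only member with a lower level after serum with THOC5 depleted, by 1.26-fold. Nqo1, with scaled signals of 4962, 5104, 3908 and 6148, was 1.27-fold lower in unstimulated cells and had a change of 0.27 after serum. Txnrd1 had log2 changes of 0.38 and 0.36, alike before and after serum.

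Neither regulator passed the limit between the arrays. Nfe2l2 had log2 changes of 0.21 and 0.20 and Keap1 of 0.13 and 0.38. The change of Keap1 after serum was above the members' median of 0.36 and above that of Nqo1 (0.27). Relative to the median of all genes, the unscaled values were 0.15 and 0.14 for Nfe2l2 and 0.07 and 0.32 for Keap1. In unstimulated cells the order of the changes from high to low was Hmox1, Gclc, Gclm, Txnrd1, Srxn1, Nfe2l2, Keap1, Slc7a11 and Nqo1. Apart from the steps from Hmox1 to Gclc, from Gclc to Gclm, from Keap1 to Slc7a11 and from Slc7a11 to Nqo1, neighbours in this order lay closer than 0.129, the median SD of probes of a gene.

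**Figure D3:**
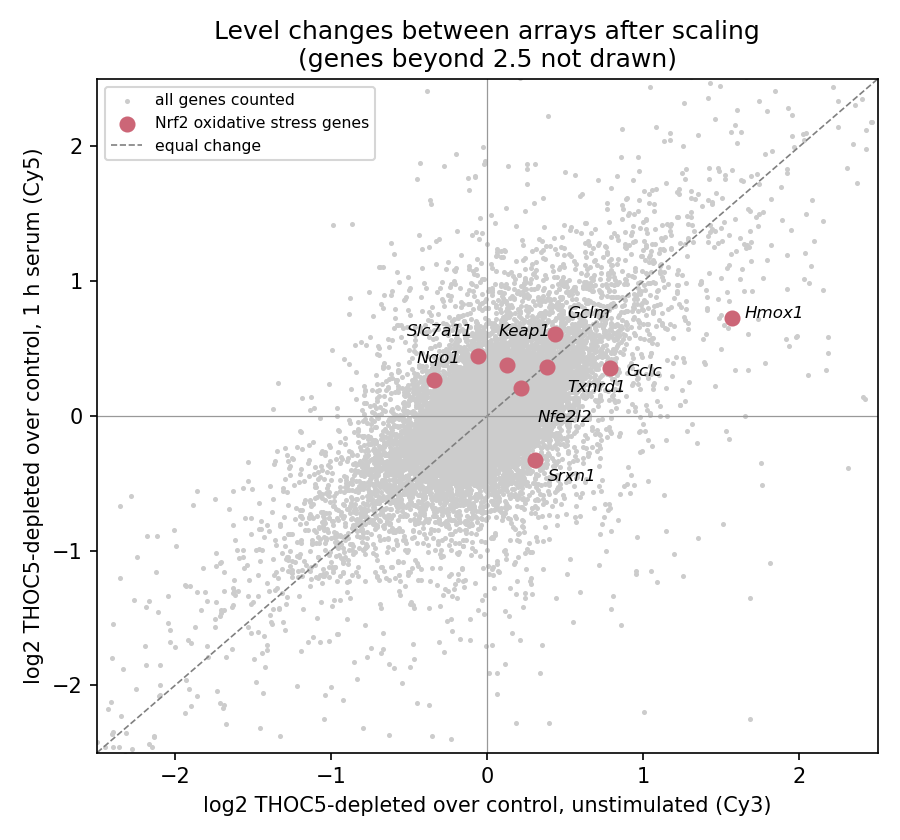
Log2 level on the THOC5-depleted over the control array in unstimulated cells (horizontal) and after 1 h of serum (vertical) for all genes counted (grey) and the 9 members (red); the dashed line marks equal change. Hmox1 lies far to the right at 1.57 and 0.73, Srxn1 below the horizontal axis at 0.30 and -0.33, and Nqo1 left of the vertical axis at -0.34 and 0.27.

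The genes whose pattern over the 4 samples was most like that of a member were listed for the 3 members that spanned 1 or more on the log2 scale. Likeness was the Euclidean distance between centred log2 levels, over 17240 genes well above background in all 4 channels. Nearest to Hmox1 were Shd at a distance of 0.115, Edn2 at 0.325 and Gdf15 at 0.329. Nearest to Gclc were Dact1 (0.0882), Hk2 (0.0893) and Best2 (0.102). Nearest to Srxn1 were C81189 (0.0877), Nfatc2 (0.140) and Mafk (0.150), the last a small Maf partner of Nrf2. None of the lists held another of the 9 members, and 4 samples leave room for many genes to have a like pattern.

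Promoter sequences were searched for the core of the antioxidant response element, TGACNNNGC, on both strands. The windows run from 250 bases before to 50 after a gene's start and come from RefSeq on GRCm38.p6, which 7 of the 9 genes had (all but Hmox1 and Gclc). Of 32851 windows, 12.4% hold a match, and so do 13.99% of 27025 genes by at least 1 window. Among the members, Gclm, Txnrd1, Srxn1 and Nfe2l2 hold 1 match each, where Txnrd1 had 3 windows and each other member searched had 1. They are shown with the match in capitals, on the gene's strand, to set the matches side by side.
Gclm, GRCm38.p6 chr3:122245413-122245441, + strand, match from position -134: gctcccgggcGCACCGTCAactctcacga
Txnrd1, GRCm38.p6 chr10:82859104-82859132, + strand, match from position -92: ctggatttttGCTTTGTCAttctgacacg
Srxn1, GRCm38.p6 chr2:152105542-152105570, + strand, match from position 29: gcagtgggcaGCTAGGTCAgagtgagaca
Nfe2l2, GRCm38.p6 chr2:75704885-75704913, − strand, match from position -240: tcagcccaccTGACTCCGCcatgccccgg
In the first 3 the core reads on the strand opposite to the gene, and in Nfe2l2 on the strand of the gene. A match says that these letters are present, and the windows of Nqo1, Slc7a11 and Keap1 do not hold them. The 3 target genes shown had log2 serum ratios of 0.22, 0.51 and 1.53 on the control array, in the order of the lines above.

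The wider pathway was read from 6 lists with 67 other genes, of which 65 were counted. On the control array 7 of the 65 were higher after serum by 1.5-fold or more (10.8%, beside 6.9% of all genes) and 2 lower (3.08% beside 6.92%). On the THOC5-depleted array 7 were higher (10.8% beside 3.83%) and 0 lower (beside 2.09%). The serum ratio was larger with THOC5 depleted by the limit for 5 (7.69% beside 5.98%) and smaller for 2 (3.08% beside 5.09%). The median difference of these ratios was 0.08, beside 0.01 over all genes counted. In unstimulated cells 2 were higher with THOC5 depleted (3.08% beside 6.88%) and 4 lower (6.15% beside 7.56%), both below the share of all genes. After serum 3 were higher (4.62% beside 8.36%) and 2 lower (3.08% beside 7.25%), again below it. The medians over these genes were -0.04 and 0.11 for the serum ratios and -0.05 and -0.04 for the level changes in unstimulated and stimulated cells, nearer to 0 than those of the 9 members. In either direction, 13.8% of all genes were past the limit after serum on the control array and 5.93% on the other, so that for lists of 7 to 16 genes a count of 0 or 1 lies near the share of all genes and sets no list apart.

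Of 9 counted partners and regulators of Nrf2, 4 were higher after serum in control cells. The small Maf genes Maff and Mafk, whose proteins pair with Nrf2 or Bach1 on DNA, had log2 ratios of 2.09 and 1.64, Bach1 had 1.03, and Sqstm1, which encodes the Keap1-binding adaptor p62, had 0.75. In THOC5-depleted cells, Maff (0.88) and Mafk (0.71) were past the limit and Bach1 was at 0.51. The difference between the arrays was -1.21 for Maff and -0.92 for Mafk, the same direction as for Hmox1 and Srxn1. Over all 6 lists, 5 genes lay past the limit in the other direction. In unstimulated cells Maff was higher with THOC5 depleted (0.74), and after serum Bach1 was lower (-0.66). Maff is among the induced genes that the study picked from these arrays, so that its ratio is not independent evidence.

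Among 16 counted genes of glutathione synthesis and use, 1 was past the limit after serum without depletion of THOC5 and 3 with it, all higher. Chac1, which degrades glutathione, had log2 ratios of 0.91 and 0.92. The glutathione transferases Gsta3 (-0.10 in control cells, 0.98 in THOC5-depleted cells) and Gsta4 (0.25 and 0.63) passed the limit on the THOC5-depleted array. Gsta3 (-1.19) and another transferase, Gstm1 (-0.71), were lower in unstimulated THOC5-depleted cells, unlike Gclc in the same pathway. Gsta3 was dim, with signals between 24.7 and 63.1.

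Of 12 thioredoxin and peroxiredoxin genes, 1 changed by the limit. This was Txnip, which encodes a protein that binds and inhibits thioredoxin, with a log2 serum ratio of -1.80 without and -0.44 with depletion of THOC5. Its signal went from 1058 to 302.9 in control cells and from 839.9 to 618.4 in THOC5-depleted cells, so that its level after serum was 2.48-fold higher with THOC5 depleted. None of the 12 genes for NADPH supply and detoxification passed the limit after serum on either array. Idh1, an NADPH-producing isocitrate dehydrogenase, was lower with THOC5 depleted before (-0.65) and after serum (-0.68), and Aox1, aldehyde oxidase, was higher after serum (0.92).

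None of the 9 genes of heme and iron handling passed the limit after serum on either array. Slc40a1, the iron exporter ferroportin, was lower in unstimulated THOC5-depleted cells (-1.24), where Hmox1 was higher. Among 7 other antioxidant genes, the metallothioneins Mt2 (1.02) and Mt1 (0.70), which bind zinc and copper, were higher and the extracellular superoxide dismutase Sod3 (-0.59) lower after serum in control cells. In THOC5-depleted cells, catalase, Cat (0.61), and Osgin1 (0.66), a growth inhibitor induced by oxidative stress, were the ones past the limit. Osgin1 had signals of 757.1 and 724.9 in control cells and of 1139 and 1795 in THOC5-depleted cells. Its level was higher with THOC5 depleted before (0.89) and after serum (1.61).

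**Figure D4:**
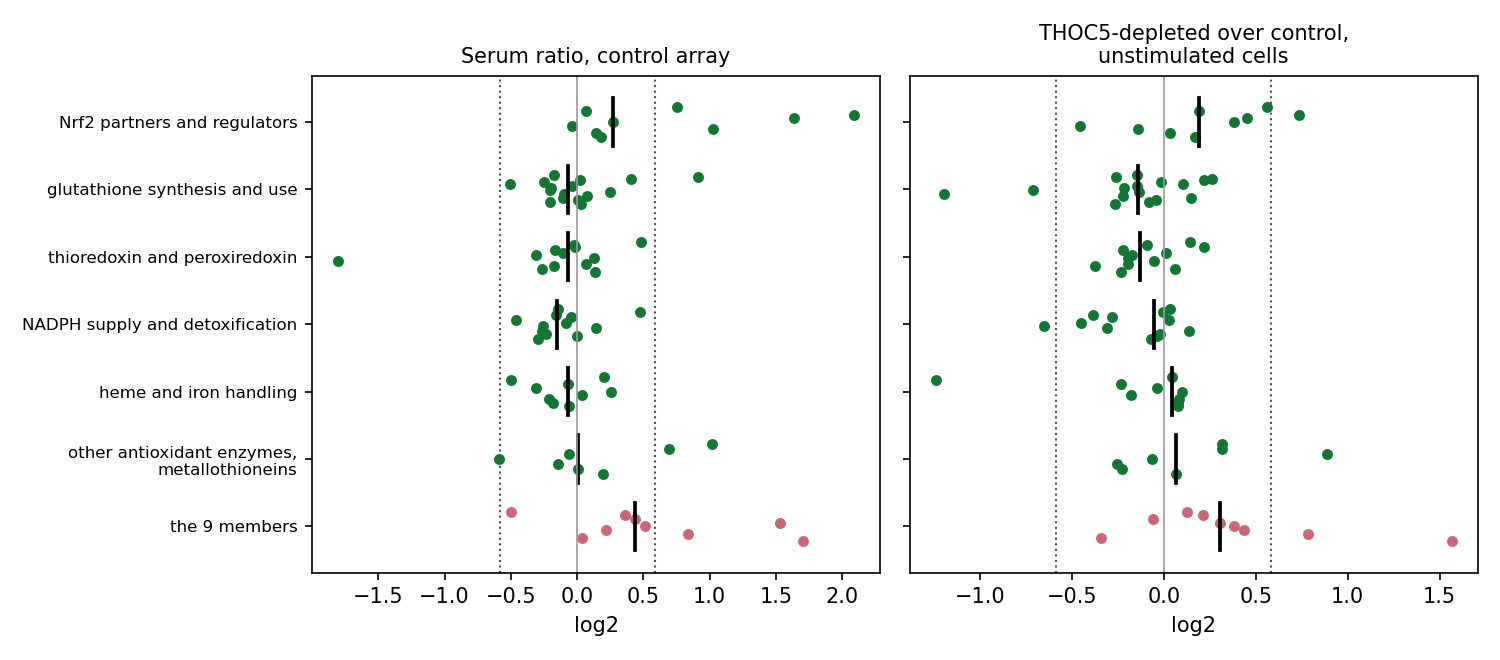
Log2 serum ratio on the control array (left) and log2 level in unstimulated THOC5-depleted over control cells (right) for the genes of 6 pathway lists (green) and the 9 members (red); black bars are list medians and dotted lines 1.5-fold. The members' medians lie at 0.44 and 0.30, and Maff at 2.09 is the highest and Txnip at -1.80 the lowest point on the left.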

How the data were processed

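The authors hybridised total RNA of the 4 samples to 2 dual-color arrays and deposited the output of Agilent Feature Extraction 10.7.3.1. Per the file headers, the deposited processed signals are intensities, background-subtracted and normalized between dyes within each array (linear and LOWESS), not between arrays. The log10 ratio in the authors' files is Cy5 over Cy3. The deposited series table holds the size of that log10 ratio without its sign (0 negative values among 44397 features) and was an alternative only.

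Outlier spots (239 and 234 of 43020) were left out and spots of a probe averaged as log2 values. Of 35777 probes with a symbol, 26412 were named by accession. The probe with the highest mean log2 signal stood for a gene. Levels between arrays were scaled by limma 3.58.1 (Aquantile). Genes well above background in at least 1 channel compared were counted at 1.5-fold. The percentage of spots well above background was 62.1 to 64.4, which limits precision for dim genes; with 1 array per condition no test between conditions was possible, and serum, paired within each array, was not tested over the arrays.

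The members and the pathway lists were chosen with earlier results of these data known. Named genes are all members, Thoc5, marker genes, pathway genes past 1.5-fold in any comparison (at most 4 per list and comparison) and the 3 genes nearest to each member that spans 1 or more. Values of other genes beside these were chosen after they were seen. Alternatives were normexp (offset 50) with loess, no dye normalization, outlier spots kept, other probes of a gene, a floor of 50, the series table, thresholds of 1.3-fold and 2-fold, other filters, equal spread of log ratios and 4 other scalings. The procedure was tested on simulated data. The number of columns not mapped to a sample was 0. Python 3.11.15 with numpy 2.4.6, pandas 2.3.3 and matplotlib 3.10.9, and R 4.3.3, were used.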

Additional observations from a re-analysis of the deposited data

Results flagged for a closer look

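Of the pathway genes past 1.5-fold in some comparison, 5 had a serum response of opposite sign on the arrays, higher after serum in THOC5-depleted and lower in control cells. The difference of the log2 ratios, THOC5-depleted minus control, was 1.07 for Gsta3, 0.92 for Slc40a1, 0.89 for Aox1, 0.72 for Osgin1 and 0.53 for Gstm1. With 1 array per condition the difference was not tested. The share of all genes with opposite signs on the arrays was not counted, so that the 5 cannot be set against it. In control cells the ratios were -0.10 for Gsta3, -0.06 for Osgin1 and -0.20 for Gstm1, close to 0, and -0.50 for Slc40a1 and -0.46 for Aox1. The spike-in probes differed by 0.24 in the same direction, and their part in these values was not tested. None of the 9 Nrf2 genes had opposite signs.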

How the results depend on the processing

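Over 12 settings, 332 of 378 alternative values of single members moved by less than the technical spread, 46 moved by more, 10 small values took the opposite sign and 13 crossed 1.5-fold. Many of the 332 were fixed in advance and do not show stability. The members had no outlier spots and no signal under the floor, all but Hmox1 had 1 probe, and the series table held the same ratios. Keeping outlier spots, setting the floor, taking other probes or using the series table thus left most values unchanged. The members' medians and counts at these settings were unchanged too. Counts of members past the limit depended on the limit. At 1.3-fold they were 6 (5 higher, 1 lower) and 7 (all higher) for the serum ratios of control and THOC5-depleted cells, 5 (2 higher, 3 lower) for their difference and 4 (all higher) for unstimulated levels, beside 25.9%, 13.9%, 22.8% and 25.7% of all genes in either direction. At 2-fold they were 0 for the THOC5-depleted ratio, 0 for the difference, 1 for unstimulated and 0 for stimulated levels, beside 1.85%, 3.53%, 6.33% and 6.67% of all genes. For stimulated levels the count was 1 with normexp and loess and 1 with scaling to the median (Hmox1 in both). It was also 1 without scaling, where all genes shift to a median of -0.25, this was Srxn1, lower, and neither Hmox1 nor Gclm passed. The members' median was 0.65 for the THOC5-depleted ratio without dye normalization and 0.13 for the difference at equal spread of log ratios. For unstimulated levels it was 0.16 with scaling to the median and 0.026 without scaling, and for stimulated levels 0.23 and 0.063. The share of all genes past 1.5-fold on the THOC5-depleted array was 3.90% with all 4 channels above background and 9.34% without a filter. The remaining alternatives moved each median by less than the technical spread and left each count within 1.5 times (for unstimulated levels without scaling, 1 higher and 1 lower in place of 2 and 0), while the median difference, near 0, took either sign. The cause of these changes was not tested. No paired analysis was possible between conditions because there was 1 array per condition, and a test of serum pooled over both arrays was not run.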
